A study of Mus musculus with 16 samples.

Results

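Activity-regulated genes are genes whose transcription rises within minutes to hours when a neuron is depolarised or receives growth factor signals. The 36 genes described here are immediate early transcription factors, MAP kinase phosphatases and activity-induced effectors. Their probes were taken by name, as those whose platform gene symbol is one of the 36. The 36 genes were chosen with earlier results of these data known. Of the 36 genes, 33 had a probe, with 36 probes among the 24107 of the array, and Egr4, Dusp5 and Vgf had none. Homer1, Dusp4 and Nr4a3 had 2 probes each.

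The ratios come from 16 two-colour arrays that each set RNA of a Stagerrer mutant mouse (the spelling of the labels for the staggerer strain, whose mutation removes part of Rora, which encodes the nuclear receptor ROR alpha) against RNA of a control of the same numbered litter, at postnatal days 5 to 6. The labels give the strain C57BL/6, mutant and control as the genotypes, 4 litters as the biological replicates, and a dye swap of every comparison, so that each of the 4 groups of arrays held 4 arrays: ventrobasal thalamus (VB) with mutant RNA in Cy5, VB with mutant RNA in Cy3, somatosensory cortex with mutant RNA in Cy5, and cortex with mutant RNA in Cy3. The genotype of the controls beyond the word control, and the number of animals pooled per litter, are not stated in the labels. The tissues were labelled by different methods, VB after amplification by template-switching PCR and cortex with aminoallyl nucleotides, so tissue and method cannot be told apart. VB and cortex were dissected as whole tissue, and fewer cells of a type and less RNA per cell cannot be told apart in such samples. The deposited ratios hold no levels, so the labelled tissues could not be checked against the levels of their markers.

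In the developing thalamus and cortex, calcium entry through synaptic receptors and voltage-gated channels activates calcium-dependent kinases and the ERK cascade, which phosphorylate CREB and SRF partners already bound to DNA. Those factors switch on immediate early transcription factors such as Fos, Egr1, Npas4 and Nr4a1, which in turn switch on effectors such as Bdnf, Nptx2 and Homer1. The dual-specificity phosphatases of the same set, Dusp1, Dusp4 and Dusp6, are induced by the kinases that they inactivate. ROR alpha is expressed by VB neurons that carry whisker signals to layer 4 of the somatosensory cortex, and Arc, Egr1 and Bdnf are widely used as readouts of sensory drive in that pathway.

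Every value below is a normalised log ratio between the Cy5 and Cy3 RNA of an array as deposited. It was read on a log2 scale, although the files state neither the base nor which RNA is the numerator. Signs are given as positive or negative, without saying which genotype had more transcript. The columns were taken as deposited, as though the ratios of swapped arrays already ran the same way. The other reading, Cy5 over Cy3, turns the sign of the arrays with mutant RNA in Cy3, and a positive value then means more of the transcript in mutant RNA. Its values are given beside the main ones for most tested members with array values, for counts of members' signs by tissue or role, and for some of the listed genes. Signs and rankings without such a value hold for the columns as deposited. Over all probes, VB arrays of the same dye orientation correlated at a Spearman coefficient of 0.320 to 0.447 and those of opposite orientation at -0.414 to -0.233, which is across probes and not across replicates. The cortex ranges were 0.0575 to 0.236 and -0.104 to 0.0108. Arrays held 17711 to 22207 values in VB and 19633 to 22580 in cortex, and 21 to 33 of the member genes had a value on any 1 array. The probe of Rora itself had a mean log2 ratio of -0.13 ± 0.12 (SD, n = 4 litters) in VB and -0.45 ± 0.26 (SD, n = 3) in cortex, with limma adjusted p-values of 0.555 and 0.358, and under the Cy5 over Cy3 reading 0.42 (adjusted p = 0.00470) in VB and -0.13 (adjusted p = 0.755) in cortex. On VB arrays it lay between 0.052 and 0.70 with mutant RNA in Cy5 and between -0.70 and -0.39 with mutant RNA in Cy3, so the dye orientations did not overlap. On cortex arrays 6 of the 7 values were negative, and litter 1 with mutant RNA in Cy3 gave 0.26. Whether the probe lies inside the deleted part is not stated in the files, so it checks no label.

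The promoters of 26 of the 36 member genes were matched in a RefSeq table of windows from 250 bases before to 50 bases after a start site (mouse build GRCm38.p6, 300 bases each). A start site listed for a gene can lie inside it: the Nr4a1 gene begins at base 101253902, before the window printed below. Printed below are those of Dusp6 and Klf4, which had the smallest p-values in VB, of Nr4a1, the only member with a positive ratio and an unadjusted p under 0.05 there, and of Homer1, whose dye orientations lay farthest apart. Capitals mark TGACG, the half-site of the cyclic AMP response element bound by CREB, or CGTCA, the same half-site on the other strand.
Dusp6 (chr10:99262981-99263280, plus strand, no match): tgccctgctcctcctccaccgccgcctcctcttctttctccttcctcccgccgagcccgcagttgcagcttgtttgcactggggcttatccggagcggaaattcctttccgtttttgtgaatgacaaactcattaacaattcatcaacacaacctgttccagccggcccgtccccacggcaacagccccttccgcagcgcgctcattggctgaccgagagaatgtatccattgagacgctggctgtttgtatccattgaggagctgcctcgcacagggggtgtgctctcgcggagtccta
Klf4 (chr4:55532426-55532725, minus strand, 1 match): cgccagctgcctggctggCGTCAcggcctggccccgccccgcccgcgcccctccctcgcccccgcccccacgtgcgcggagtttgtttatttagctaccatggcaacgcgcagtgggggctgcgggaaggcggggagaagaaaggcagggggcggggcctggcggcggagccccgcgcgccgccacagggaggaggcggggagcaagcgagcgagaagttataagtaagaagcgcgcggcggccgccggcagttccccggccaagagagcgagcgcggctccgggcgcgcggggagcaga
Nr4a1 (chr15:101266596-101266895, plus strand, 4 matches): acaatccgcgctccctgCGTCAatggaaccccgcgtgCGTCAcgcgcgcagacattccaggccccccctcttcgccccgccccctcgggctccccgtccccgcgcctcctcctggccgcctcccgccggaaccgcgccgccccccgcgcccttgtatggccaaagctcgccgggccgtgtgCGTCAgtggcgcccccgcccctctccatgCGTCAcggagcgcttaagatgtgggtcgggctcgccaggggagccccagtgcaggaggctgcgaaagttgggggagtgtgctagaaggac
Homer1 (chr13:93303507-93303806, plus strand, 3 matches, the first of 2 promoters listed for the gene): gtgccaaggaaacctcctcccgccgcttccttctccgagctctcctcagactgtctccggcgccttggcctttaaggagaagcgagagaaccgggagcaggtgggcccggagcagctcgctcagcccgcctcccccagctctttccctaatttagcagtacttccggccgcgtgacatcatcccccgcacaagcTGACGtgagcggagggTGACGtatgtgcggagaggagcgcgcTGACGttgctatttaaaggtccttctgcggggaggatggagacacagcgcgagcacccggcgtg
Counted from the start site of the window, the Nr4a1 matches began at -233, -213, -69 and -40, those of Homer1 at -56, -40 and -14, and that of Klf4 at -232. The half-site was found on either strand in 17 of the 26 matched member genes and in 50% of their 38 promoters, against 20.8% of all 32851 promoters in the table. The full element TGACGTCA, which contains the half-site on both strands, was found in Btg2 and Dusp1. That is 2 of the 38 member promoters (5.26%), against 1.79% of all promoters. The CArG box, the site of SRF, was found in Dusp5 and Egr2, in 5 of the 38 promoters (13.2%), against 1.63% of all promoters. Overlapping windows of Egr2 were counted apart, and several hold the same half-sites and CArG box. The AP-1 site TGANTCA was found in Bdnf alone among the members, in 1 of the 38 promoters (2.63%), against 7.81%. The RORE core TAGGTCA, the sequence bound by ROR alpha, and the Egr site GCGTGGGCG were found in 0 member promoters, against 2.61% and 0.612% of all promoters. A match describes the letters of the window and is not a binding site, and no match says only that these letters are not in it.

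In VB, 29 of the 36 member genes had a value from both arrays of the swapped pair in at least 3 litters and were tested, and none passed limma's moderated test (Benjamini-Hochberg adjusted p under 0.05). Of the 16066 features tested in VB, 50 passed, which is 0.311%. At an unadjusted p under 0.05 there were 7 of 29 member genes (24.1%) against 10.2% of all features. Of these, 6 had a negative ratio, namely Dusp6, Klf4, Nrn1, Pim1, Gadd45b and Egr1, against 4.11% of all features with a negative ratio and such a p. The seventh, Nr4a1, had a positive ratio, against 6.09% of all features. Across the 29, 12 means were positive and 17 negative, where 52.5% of all features were positive, and the median log2 ratio was -0.017 beside 0.0057 over all features. The signs depend on the reading: under Cy5 over Cy3, 14 of the 29 were positive and 15 negative, beside 50.6% of all features positive, the median was -0.013, and 14 members had the opposite sign, Dusp6, Gadd45b and Nrn1 turning positive and Nr4a1 negative among the 7. The median size of the ratio, without its sign, was 0.109 for the members and 0.0683 for all features as deposited. Under Cy5 over Cy3 the sizes lay closer together, at 0.131 and 0.119. In every litter with a value 12 of the 29 (41.4%) had the same sign, against 24.5% of all features. The members were chosen with earlier results of these data known, so their shares beside all features are descriptions and no independent test.

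**Figure D1:**
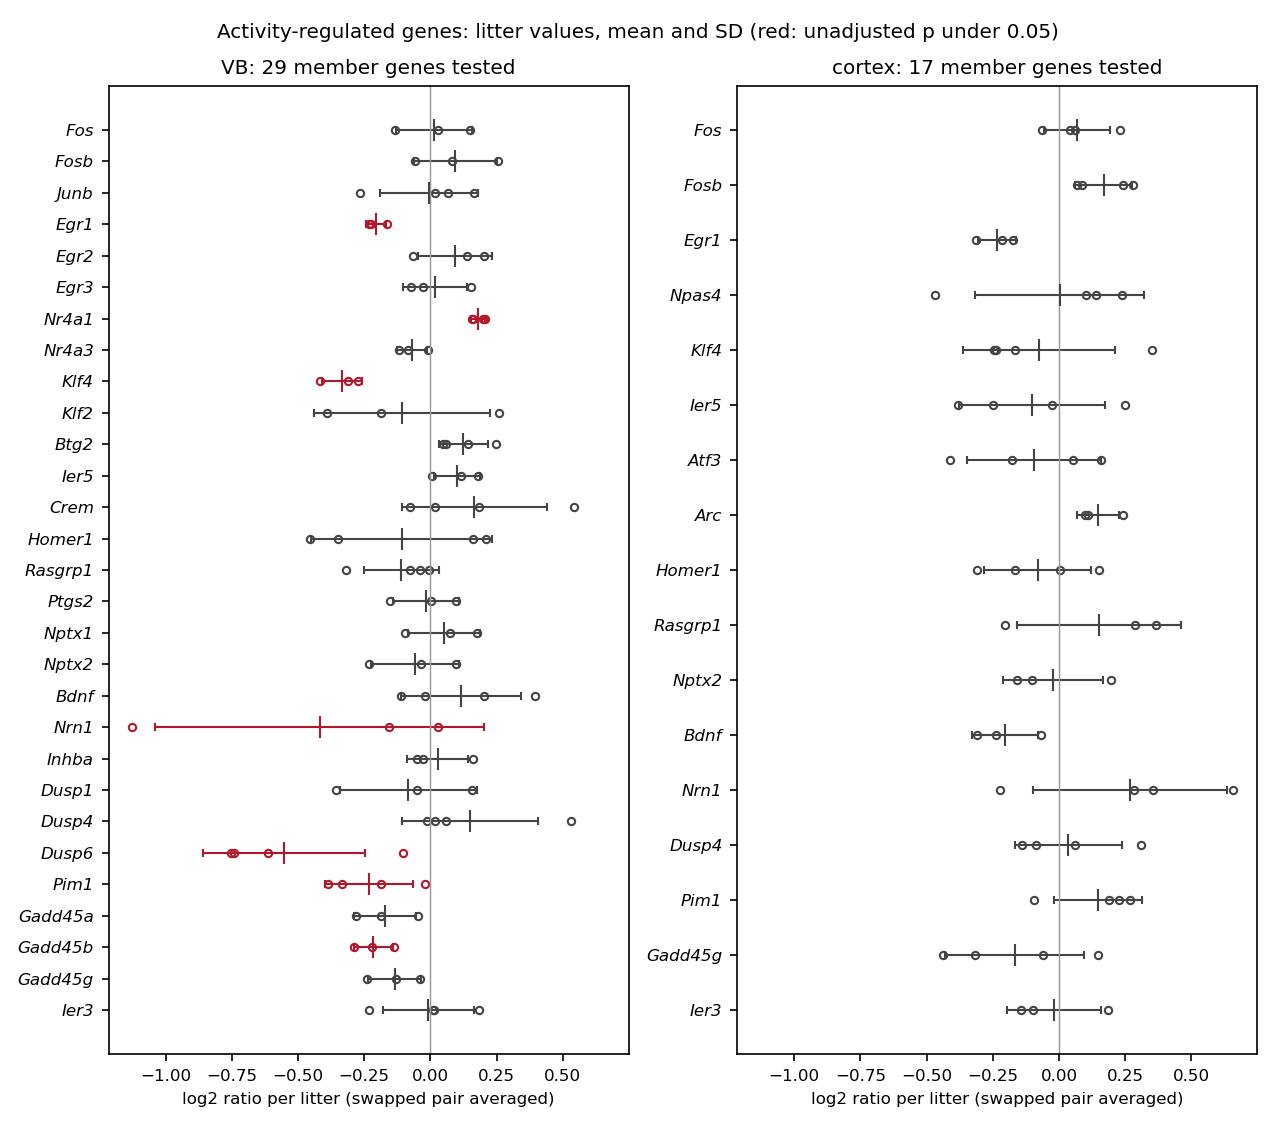
Log2 ratio of each tested member gene (x axis) in each litter, as open circles, with the mean (bar) and SD (whiskers), for VB on the left and cortex on the right; genes are ordered by role. Red marks the 7 VB genes with an unadjusted p under 0.05, of which Dusp6 lies farthest from 0 at -0.55 with the columns as deposited, and no cortex gene is red.

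The immediate early transcription factors are induced without new protein synthesis. Of the 17 on the list, 13 were tested in VB, and their means, 8 above and 5 below 0, ran from -0.33 to 0.18. Under Cy5 over Cy3, 4 were above 0 (Fos, Nr4a3, Btg2 and Ier5) and 9 below, from -0.62 to 0.16. Fos, which pairs with Jun proteins to form AP-1, gave -0.10, 0.53 and 0.096 in VB litters 2, 3 and 4 with mutant RNA in Cy5, and -0.33, -0.17, -0.24 and -0.042 in litters 1 to 4 with mutant RNA in Cy3. The values straddled 0, and the mean was 0.014 ± 0.14 (SD, n = 3; 95% interval -0.18 to 0.20; adjusted p = 0.976), or 0.16 under Cy5 over Cy3 (adjusted p = 0.242). Junb, an AP-1 partner of Fos, gave 0.16, -0.64, 0.002 and 0.15 with mutant RNA in Cy5 and -0.032, 0.11, 0.030 and 0.18 with mutant RNA in Cy3. Litter 2 in the Cy5 orientation stood lowest, and the mean was -0.0049 ± 0.18 (SD, n = 4; adjusted p = 0.990), or -0.076 under Cy5 over Cy3. Fosb, a longer-lived relative of Fos, had a mean of 0.093 ± 0.16 (SD, n = 3), or -0.060 under Cy5 over Cy3.

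Egr1, a zinc finger factor induced through SRF, gave -0.23, -0.39 and -0.54 in VB litters 1, 3 and 4 with mutant RNA in Cy5, and -0.095, 0.47, -0.074 and 0.092 in litters 1 to 4 with mutant RNA in Cy3. Every value of the Cy5 orientation lay below every value of the Cy3 orientation. Over the 3 litters with both arrays the mean was -0.21 ± 0.038 (SD; 95% interval -0.38 to -0.036), negative in each, with an unadjusted p of 0.0226 from limma and an adjusted p of 0.401. The positive array of litter 2 has no swapped partner and did not enter that mean; counted as the value of its litter, it brought the mean to -0.037. The Cy5 over Cy3 mean was -0.18 (adjusted p = 0.159). Egr2 and Egr3, its relatives, had means of 0.091 ± 0.14 and 0.017 ± 0.12 (SD, n = 3 each), or -0.35 and -0.020 under Cy5 over Cy3. Egr2 was negative on all 4 arrays with mutant RNA in Cy5, from -0.49 to -0.033, and positive on the 3 with mutant RNA in Cy3, from 0.090 to 0.89.

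Nr4a1, an orphan nuclear receptor also called Nur77, gave 0.091, 0.014, 0.18 and 0.053 in litters 1 to 4 of VB with mutant RNA in Cy5, and 0.31, 0.30, 0.24 and 0.27 with mutant RNA in Cy3. All 8 arrays were positive, and the Cy3 orientation lay above the Cy5 orientation without overlap. The mean was 0.18 ± 0.026 (SD, n = 4; 95% interval 0.042 to 0.32), a ratio of 1.13, with an unadjusted p of 0.0155 and an adjusted p of 0.362 by limma. With the columns read as Cy5 over Cy3, the mean was -0.097 ± 0.047 (adjusted p = 0.326). Its relative Nr4a3 had a mean of -0.071 ± 0.057 (SD, n = 3), with -0.080 ± 0.094 (n = 3) for probe 16761 and -0.051 ± 0.025 (n = 2) for probe 24311.

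Klf4, a Krüppel-like factor that restrains axon growth, had the second smallest p of the members in VB. It gave -1.17, -0.63 and -1.06 in litters 1, 3 and 4 with mutant RNA in Cy5, and 0.34, 0.057, 0.083 and 0.43 in litters 1 to 4 with mutant RNA in Cy3. The dye orientations lay on opposite sides of 0. Averaged over the swapped pair, the mean was -0.33 ± 0.075 (SD, n = 3; 95% interval -0.51 to -0.16), with an unadjusted p of 0.0018 and an adjusted p of 0.150. The Cy5 over Cy3 reading gave a mean of -0.62 and an adjusted p of 0.00167. Klf2, a relative also found in blood vessel cells, had a mean of -0.11 ± 0.33 (SD, n = 3).

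The remaining factors tested in VB had means above 0 as deposited. Crem, a CREB-related factor, had 0.17 ± 0.27 (SD, n = 4), Btg2, an antiproliferative cofactor, 0.12 ± 0.093 (n = 4), and Ier5, an early response gene, 0.10 ± 0.089 (n = 3). Btg2 and Ier5 were positive in every litter, with adjusted p-values of 0.563 and 0.713, and the Cy5 over Cy3 means of Crem, Btg2 and Ier5 were -0.046, 0.016 and 0.029. Npas4, a factor that responds to calcium entry in neurons, had both arrays in 2 VB litters and was not tested: it gave -0.084 and -0.33 in litters 1 and 2 with mutant RNA in Cy5, and 0.12, -0.19, -0.22 and 0.078 in litters 1 to 4 with mutant RNA in Cy3. Atf3, a stress-induced factor, had 2 such litters and Ier2 none.

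Among the MAP kinase phosphatases, Dusp6 had the smallest p of all members. Dusp6, a cytoplasmic phosphatase that inactivates ERK, gave 0.005, -0.062, -0.24 and 0.37 in VB litters 1 to 4 with mutant RNA in Cy5, and -1.51, -1.42, -0.98 and -0.58 with mutant RNA in Cy3. With mutant RNA in Cy5 the values lay on both sides of 0, with mutant RNA in Cy3 all 4 were below it, and the orientations did not overlap. The mean of the pairs was -0.55 ± 0.31 (SD, n = 4; 95% interval -0.78 to -0.33), a ratio of 0.681, negative in 4 of 4 litters, with an unadjusted p of 0.00026 and an adjusted p of 0.0639 by limma, above the threshold. Without litter 4 the mean was -0.70 and the adjusted p 0.00309. Leaving out litter 1, 2 or 3 instead gave limma adjusted p-values of 0.367, 0.169 and 0.198. The Cy5 over Cy3 reading turned the sign, with a mean of 0.57 and an adjusted p of 0.000527. Dusp1, a nuclear phosphatase of stress kinases and ERK, had a mean of -0.083 ± 0.26 (SD, n = 3), or 0.13 under Cy5 over Cy3. Dusp4, a nuclear phosphatase of ERK, had 0.15 ± 0.26 (n = 4), with 0.15 ± 0.29 (n = 4) for probe 6947 and 0.012 ± 0.16 (n = 2) for probe 3261.

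**Figure D2:**
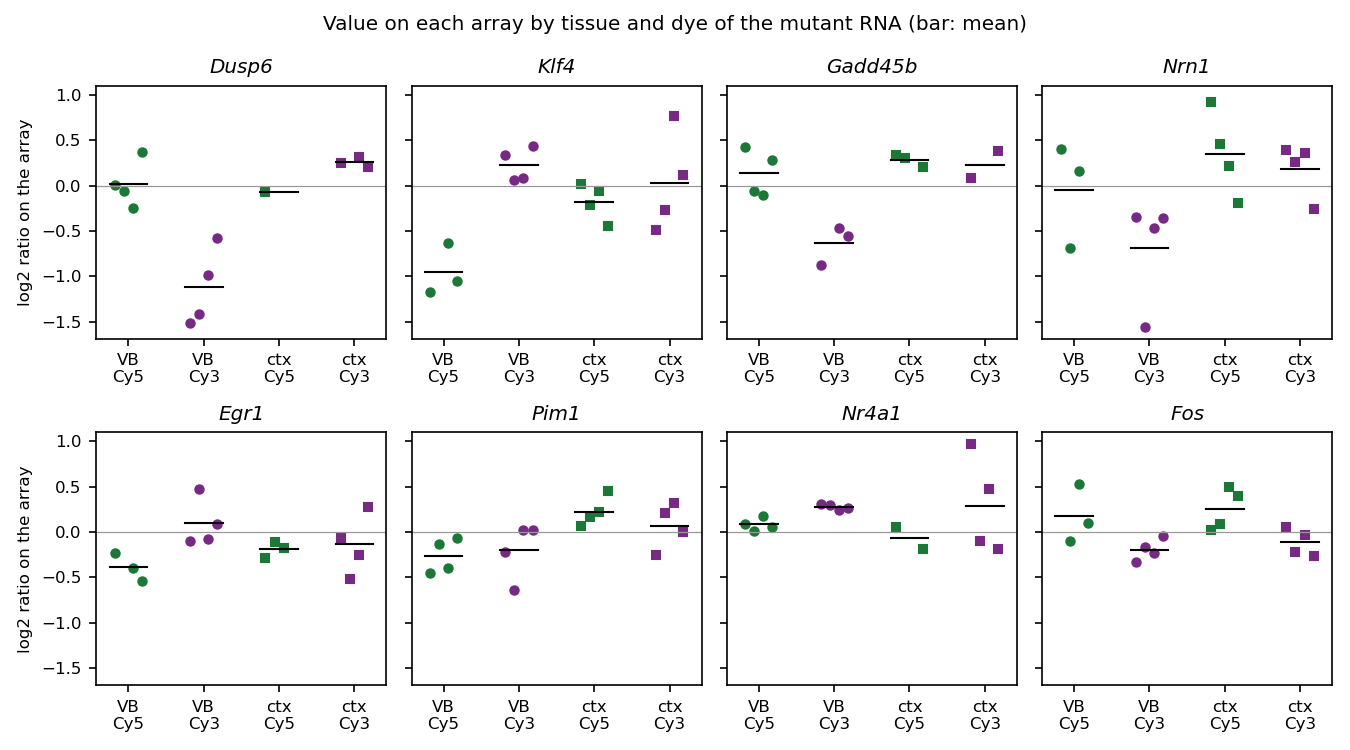
Log2 ratio (y axis) on each array for 8 member genes, in VB (circles) and cortex (squares, written ctx), with mutant RNA in Cy5 (green) or Cy3 (purple); the bar is the mean over the arrays shown. In VB, Dusp6 lies between -1.51 and -0.58 with mutant RNA in Cy3 and around 0 with mutant RNA in Cy5, Klf4 splits the other way, and Nr4a1 is above 0 on all 8 arrays.

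All 5 growth arrest and survival genes were tested in VB, and their means ran from -0.23 to -0.0076, where 52.5% of all features were positive. By the other reading, Cy5 over Cy3, 4 were negative and Gadd45b was positive, from -0.18 to 0.42. Pim1, a kinase that promotes survival, gave -0.45, -0.14, -0.39 and -0.065 in litters 1 to 4 with mutant RNA in Cy5 and -0.22, -0.64, 0.017 and 0.025 with mutant RNA in Cy3. It was negative on 6 of the 8 arrays, and the orientations overlapped. The mean was -0.23 ± 0.16 (SD, n = 4; 95% interval -0.40 to -0.063), negative in 4 of 4 litters, with an unadjusted p of 0.0117 and an adjusted p of 0.340, and under Cy5 over Cy3 it was -0.029. Gadd45b, which is induced by stress and by activity and takes part in DNA demethylation, gave 0.43, -0.064, -0.10 and 0.29 with mutant RNA in Cy5 and -0.87, -0.47 and -0.56 in litters 1, 3 and 4 with mutant RNA in Cy3. As for Dusp6, the negative mean came from the Cy3 orientation. The mean was -0.22 ± 0.075 (SD, n = 3; unadjusted p = 0.0210; adjusted p = 0.391 by limma), and read as Cy5 over Cy3 it was 0.42 with an adjusted p of 0.0140. Its relatives Gadd45a and Gadd45g had means of -0.17 ± 0.12 and -0.14 ± 0.099 (SD, n = 3 each), negative in every litter with a value. Ier3, an early gene that affects cell survival, stood at -0.0076 ± 0.17 (n = 4).

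Among the secreted and surface factors, Nrn1, a membrane-anchored protein that promotes neurite growth, gave 0.40, -0.69 and 0.16 in VB litters 1 to 3 with mutant RNA in Cy5, and -0.34, -1.56, -0.47 and -0.36 in litters 1 to 4 with mutant RNA in Cy3. Litter 2 was the lowest in both orientations. The mean was -0.42 ± 0.62 (SD, n = 3; 95% interval -0.82 to -0.013), negative in 2 of 3 litters, with an unadjusted p of 0.0443 and an adjusted p of 0.480 by limma. The litter values were 0.0285, -1.1265 and -0.1585, so the mean rests largely on litter 2. The interval and p use limma's moderated SE of 0.18, which is smaller than the printed SD alone would give. Under the Cy5 over Cy3 reading it was 0.37 ± 0.060 with an adjusted p of 0.00957. Bdnf, a neurotrophin, gave -0.018, 0.095, 0.20 and -0.072 with mutant RNA in Cy5 and -0.024, -0.32, 0.20 and 0.86 with mutant RNA in Cy3. Litter 4 in the Cy3 orientation stood above the rest, and the mean was 0.12 ± 0.23 (SD, n = 4; adjusted p = 0.692), or -0.065 under Cy5 over Cy3. Inhba, a subunit of activin, had a mean of 0.028 ± 0.12 (SD, n = 3), or 0.36 under Cy5 over Cy3.

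The synaptic and signalling effectors had means between -0.11 and 0.051 in VB, and 5 of the 6 were tested, 1 with a positive mean as deposited and 4 under Cy5 over Cy3. Rasgrp1, a Ras activator, had -0.11 ± 0.14 (SD, n = 4), negative in every litter. Ptgs2, the inducible prostaglandin synthase, had -0.017 ± 0.13 (n = 3), and the neuronal pentraxins Nptx1 and Nptx2, which cluster glutamate receptors, had 0.051 ± 0.14 and -0.057 ± 0.17 (n = 3 each), the latter 0.26 under Cy5 over Cy3. Arc, which controls the removal of glutamate receptors from synapses, had both arrays in 1 VB litter and was not tested. It gave -0.20 in litter 3 with mutant RNA in Cy5 and -0.11, -0.21 and -0.34 in litters 1, 3 and 4 with mutant RNA in Cy3. All 4 arrays with a value were negative as deposited, and under Cy5 over Cy3 those with mutant RNA in Cy3 turn positive.

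Homer1, a scaffold of the postsynaptic density, differed most between the dye orientations. In VB, probe 19244 gave -0.81, -1.03, -0.88 and -1.77 in litters 1 to 4 with mutant RNA in Cy5, and 1.63, 0.10, 1.20 and 0.85 with mutant RNA in Cy3. In cortex the same probe gave -1.22, -1.18 and -1.01 in litters 2 to 4 with mutant RNA in Cy5, and 1.21, 0.81 and 0.39 with mutant RNA in Cy3. The sign followed the dye of the mutant RNA on every array of both tissues. The mean of the pairs was therefore close to 0, at -0.087 ± 0.44 (SD, n = 4) in VB and -0.17 ± 0.15 (n = 3) in cortex, with probe-level adjusted p-values of 0.871 and 0.817. Read as Cy5 over Cy3 it was -1.03 in VB and -0.97 in cortex, with adjusted p-values of 2.37e-05 and 0.000179 from limma over all probes. Whether the split follows the dye or the genotype depends on the reading of the columns and was not tested. Probe 10259 gave 0.20, -0.013 and -0.18 in VB litters 1 to 3 with mutant RNA in Cy5 and -0.19, -0.46 and -0.33 in litters 1, 2 and 4 with mutant RNA in Cy3. In cortex it gave -0.72, -0.064 and -0.14 in litters 1 to 3 with mutant RNA in Cy5 and 1.03, 0.094 and -0.15 with mutant RNA in Cy3. The probes thus disagreed in VB, and which form of the transcript each reads is not stated in the files. Averaged in each litter over the probes with both arrays, Homer1 had a mean of -0.11 ± 0.34 (SD, n = 4; limma adjusted p = 0.784) in VB and -0.080 ± 0.20 (n = 4; adjusted p = 0.926) in cortex. Under Cy5 over Cy3 the means were -0.76 (limma adjusted p = 0.00451) and -0.68 (adjusted p = 0.00188). VB litters 3 and 4 and cortex litter 4 rest on probe 19244 alone, and cortex litter 1 on probe 10259 alone. These means and SDs thus mix litters read by different probes.

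**Figure D3:**
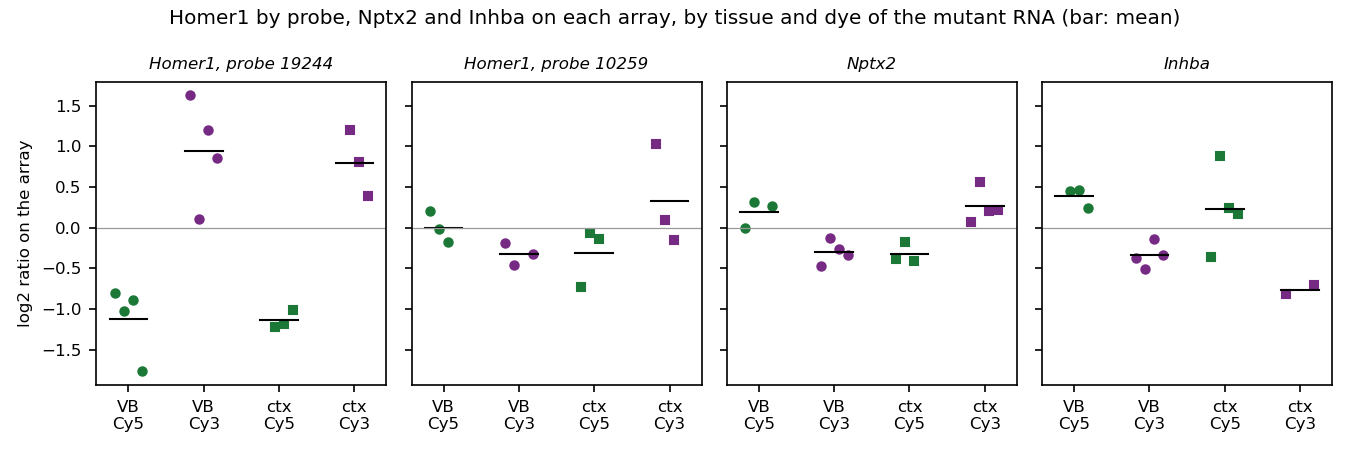
Log2 ratio (y axis) on each array for the probes of Homer1, for Nptx2 and for Inhba, by tissue (circles VB, squares cortex) and dye of the mutant RNA (green Cy5, purple Cy3); bars are means over the arrays shown. Homer1 probe 19244 is below -0.8 on every array with mutant RNA in Cy5 and above 0 on every one with mutant RNA in Cy3, while Nptx2 splits in opposite directions in VB and cortex.

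Other members also differed between the dye orientations. In VB the orientation means had opposite signs for 16 of 29 member genes (55.2%), against 67.5% of all features. The arrays of the orientations did not overlap for 11 of 29 (37.9%), against 27.2% of all features: Dusp6, Egr1, Egr2, Gadd45b, Gadd45g, Homer1, Inhba, Klf4, Nptx1, Nptx2 and Nr4a1. Inhba gave 0.45, 0.46 and 0.24 in VB litters 2 to 4 with mutant RNA in Cy5 and -0.37, -0.51, -0.14 and -0.34 in litters 1 to 4 with mutant RNA in Cy3. Read as Cy5 over Cy3, 8 of 29 member genes passed in VB (27.6%), against 17.3% of all features: Dusp6, Gadd45b, Nrn1, Inhba and Nptx2 with a positive ratio, and Homer1, Klf4 and Egr2 with a negative one. Under that reading the positive genes would have more transcript in mutant RNA and the negative ones less. In cortex opposite signs were seen for 8 of 17 (47.1%), against 53.6% of all features, and no overlap for Arc, Homer1 and Nptx2 (17.6%), against 9.23%. Read as Cy5 over Cy3, Homer1 alone of the 17 passed in cortex (5.88%), against 1.53% of all features.

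**Figure D4:**
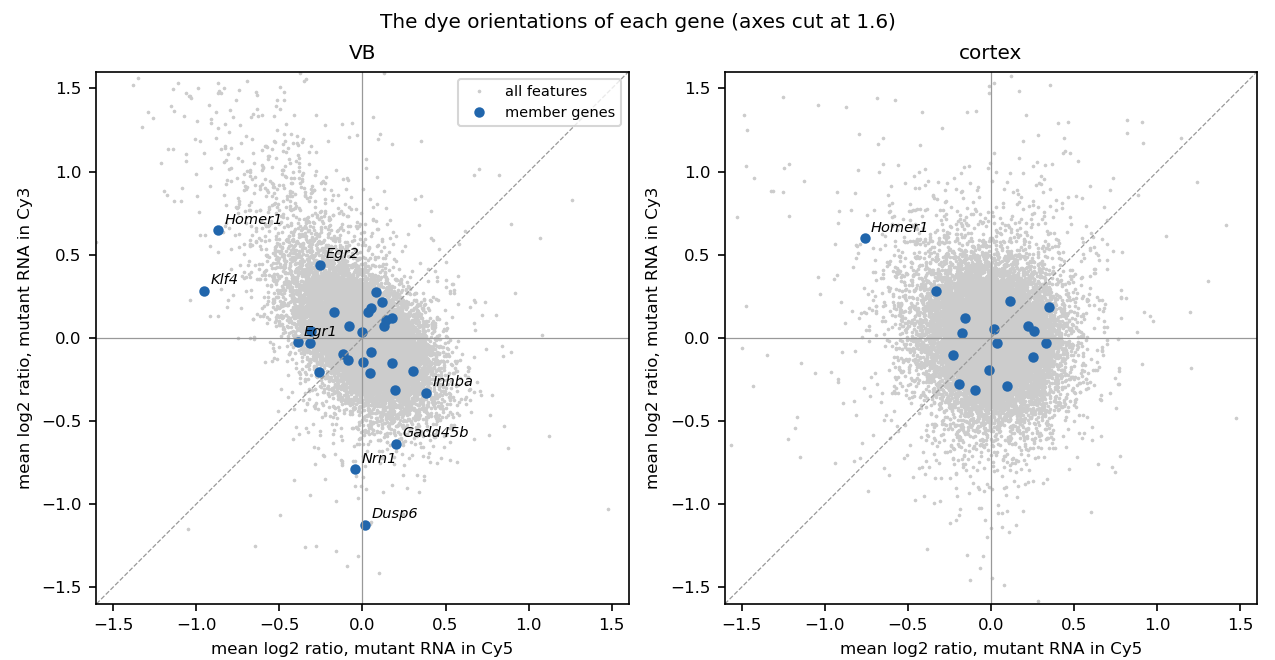
Mean log2 ratio with mutant RNA in Cy5 (x axis) against mutant RNA in Cy3 (y axis) over litters with both arrays, for all features (grey) and member genes (blue); the dashed line marks equal values, and 68 VB and 57 cortex features beyond 1.6 are not shown, none of them members. In VB, Homer1 and Klf4 lie to the upper left of the line, Dusp6, Gadd45b and Nrn1 to the lower right.

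In cortex 17 member genes had enough litters, and none passed at an adjusted p under 0.05, against 10 of 16521 features (0.0605%). None reached an unadjusted p under 0.05 either, against 7.90% of all features. The means were positive for 8 and negative for 9, where 49.1% of all features were positive, the median was -0.018 beside -0.0031 over all features, and the median size was 0.101 beside 0.0941. Under Cy5 over Cy3, 10 were positive and 7 negative, beside 51.5% of all features positive, with a median of 0.042. The median size under that reading was 0.103, beside 0.106 over all features. Arc, Bdnf, Egr1 and Fosb (23.5% of the 17) had the same sign in every litter with a value, against 20.3% of all features. The 16 members with too few cortex litters include Dusp6, Nr4a1, Gadd45b, Junb, Egr2 and Egr3, so Dusp6 has no tested cortex counterpart. It gave -0.076 in litter 1 with mutant RNA in Cy5, and 0.25, 0.32 and 0.21 in litters 1, 3 and 4 with mutant RNA in Cy3.

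Egr1 in cortex gave -0.28, -0.11 and -0.18 in litters 1 to 3 with mutant RNA in Cy5, and -0.064, -0.51, -0.25 and 0.28 in litters 1 to 4 with mutant RNA in Cy3. It was negative on 6 of the 7 arrays. The mean of the 3 complete pairs was -0.23 ± 0.071 (SD; 95% interval -0.50 to 0.035; unadjusted p = 0.0827; adjusted p = 0.700 by limma), beside -0.21 in VB. It was -0.11 with unpaired arrays counted and 0.042 under Cy5 over Cy3, where VB had -0.18. Arc gave 0.29, 0.47 and 0.23 in cortex litters 1, 3 and 4 with mutant RNA in Cy5, and -0.094, -0.31, 0.009 and -0.012 with mutant RNA in Cy3. The orientations did not overlap, and the mean was 0.15 ± 0.080 (SD, n = 3; adjusted p = 0.836), 0.033 with unpaired arrays counted and 0.18 under Cy5 over Cy3. Fos gave 0.026, 0.086, 0.50 and 0.39 with mutant RNA in Cy5 and 0.060, -0.22, -0.035 and -0.27 with mutant RNA in Cy3. Its mean was 0.068 ± 0.12 (SD, n = 4; adjusted p = 0.937), or 0.18 under Cy5 over Cy3. Fosb had 0.17 ± 0.11 (n = 4; adjusted p = 0.757) and was positive in every litter, with -0.051 under Cy5 over Cy3.

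Npas4 gave -0.088, 0.16, 0.47 and -0.40 in cortex litters 1 to 4 with mutant RNA in Cy5 and 0.37, 0.044, 0.003 and -0.54 with mutant RNA in Cy3, for a mean of 0.0030 ± 0.32 (SD, n = 4), or 0.034 under Cy5 over Cy3. Litter 4 was the lowest in both orientations. Bdnf gave -0.37, -0.14 and 0.22 in litters 1, 2 and 4 with mutant RNA in Cy5 and -0.25, 0.008, 0.34 and -0.69 in litters 1 to 4 with mutant RNA in Cy3, for a mean of -0.20 ± 0.12 (SD, n = 3; adjusted p = 0.755), -0.069 with unpaired arrays counted and 0.11 under Cy5 over Cy3. Nrn1 gave 0.92, 0.46, 0.21 and -0.19 with mutant RNA in Cy5 and 0.40, 0.26, 0.35 and -0.26 with mutant RNA in Cy3. Litters 1 to 3 were positive in both orientations and litter 4 negative in both, and the mean was 0.27 ± 0.37 (SD, n = 4; unadjusted p = 0.0677; adjusted p = 0.677), or 0.081 under Cy5 over Cy3.

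The remaining cortex values were small or uneven. Pim1 gave 0.064, 0.17, 0.22 and 0.45 with mutant RNA in Cy5 and -0.26, 0.21, 0.32 and 0.005 with mutant RNA in Cy3, for a mean of 0.15 ± 0.17 (SD, n = 4), or 0.077 under Cy5 over Cy3. Klf4 gave 0.015, -0.22, -0.056 and -0.45 with mutant RNA in Cy5 and -0.49, -0.27, 0.76 and 0.11 with mutant RNA in Cy3, for a mean of -0.074 ± 0.29 (n = 4), or -0.10 under Cy5 over Cy3, and here the dye orientations overlapped. The means of Dusp4, Atf3, Ier3, Ier5, Rasgrp1, Gadd45g and Nptx2 lay between -0.17 and 0.15. Junb and Nr4a1 had both arrays in 2 cortex litters: Junb gave 0.19, -0.17 and 0.12 in litters 1 to 3 with mutant RNA in Cy5 and 0.43, -0.017 and -0.60 in litters 1, 3 and 4 with mutant RNA in Cy3. Nr4a1 gave 0.057 and -0.19 in litters 1 and 4 with mutant RNA in Cy5 and 0.97, -0.094, 0.47 and -0.18 in litters 1 to 4 with mutant RNA in Cy3, with values on both sides of 0. Gadd45b gave 0.34, 0.30 and 0.20 in litters 1, 2 and 4 with mutant RNA in Cy5 and 0.079 and 0.38 in litters 1 and 4 with mutant RNA in Cy3. All 5 were positive as deposited, and under Cy5 over Cy3 those with mutant RNA in Cy3 turn negative. The 2 complete pairs were too few for the test.

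The difference between the tissues, VB minus cortex, was tested for the 14 member genes with enough litters in both. None passed at an adjusted p under 0.05, against 12 of 12178 features (0.0985%), and 3 of 14 (21.4%) reached an unadjusted p under 0.05, against 9.04%. Nrn1 differed by -0.69 (SE 0.26; 95% interval -1.25 to -0.13; unadjusted p = 0.0197; adjusted p = 0.452 by limma), from -0.42 in VB and 0.27 in cortex. Pim1 differed by -0.38 (SE 0.13; 95% interval -0.65 to -0.10; unadjusted p = 0.0104; adjusted p = 0.368), from -0.23 and 0.15. For Bdnf the difference was 0.32 (SE 0.15; unadjusted p = 0.0484; adjusted p = 0.550), from 0.12 and -0.20. As deposited, Nrn1 and Pim1 were negative in VB and positive in cortex, and Bdnf the reverse, none beyond the threshold over all features. Under Cy5 over Cy3 the differences were 0.29 for Nrn1 (0.37 in VB, 0.081 in cortex; adjusted p = 0.250), -0.11 for Pim1 (-0.029 and 0.077; adjusted p = 0.722) and -0.17 for Bdnf (-0.065 and 0.11; adjusted p = 0.653), so Nrn1 and Bdnf turned sign. Egr1 differed by 0.027 (95% interval -0.26 to 0.31) as deposited and by -0.22 under Cy5 over Cy3 (adjusted p = 0.463). Read as Cy5 over Cy3, Nptx2 alone passed (7.14% of the 14, against 3.74% of all features), with a difference of 0.56 (adjusted p = 0.0333). Its arrays gave 0.002, 0.32 and 0.27 in VB litters 1, 2 and 4 with mutant RNA in Cy5 and -0.47, -0.13, -0.26 and -0.34 in litters 1 to 4 with mutant RNA in Cy3, and in cortex -0.39, -0.18 and -0.41 in litters 1 to 3 and then 0.073, 0.57, 0.21 and 0.22.

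Genes of the same signalling route that are not members were taken as lists. Of 34 further activity-regulated genes, 23 were tested in each tissue and 0 passed in either. By limma, 3 in VB and 4 in cortex had an unadjusted p under 0.05, where 10.2% and 7.90% of all features did. The means were positive for 8 and negative for 15 in both tissues, with medians of -0.048 in VB and -0.023 in cortex. The other reading gave 11 positive and 12 negative in VB and 12 positive and 11 negative in cortex. In VB, Ccn1, Fosl2, Jun, Plk2 and Sertad1 passed under it (5 of 23), where 17.3% of all features passed. The gene with the smallest p was Nfil3, a repressor of the bZIP family, in VB (-0.36 ± 0.12; SD, n = 4; adjusted p = 0.0741 by limma) and Fosl1, a Fos relative, in cortex (-0.73 ± 0.85; n = 4; adjusted p = 0.371), and both turned sign under Cy5 over Cy3, to 0.12 and 0.58. Of 31 genes for synapse-to-nucleus signalling, 20 were tested in VB and 26 in cortex with 0 passing (4 and 6 by unadjusted p), and the smallest p belonged to Ppp3cb, a calcineurin subunit, in VB (-0.23 ± 0.15; n = 4; adjusted p = 0.340) and Grin1, the obligatory NMDA receptor subunit, in cortex (-0.38 ± 0.20; n = 4; adjusted p = 0.333). The ERK cascade, 11 genes tested in each tissue, ran from -0.30 to 0.062 in VB with Grb2, an adaptor, at the smallest p (-0.30 ± 0.53; n = 3), and from -0.31 to 0.13 in cortex with Map2k1, the kinase of ERK (-0.31 ± 0.30; n = 3). Of 13 other ERK feedback inhibitors tested in each tissue, 8 were positive in VB, led by Spred3 (0.19 ± 0.18; n = 4), and 10 in cortex, led by Spry2 (0.21 ± 0.11; n = 3), and 0 passed in either list (by unadjusted p, 1 feedback inhibitor in VB and 0 otherwise). The median of these feedback inhibitors was 0.048 in VB, where Dusp6 was at -0.55. Under Cy5 over Cy3 it was 0.13, with 12 of 13 positive and Dusp6 at 0.57. Of all features 50.6% were positive there, as were 8 of 11 ERK cascade genes, 8 of 20 synapse-to-nucleus genes and 8 of 10 thalamus markers. Under that reading the genes that passed in VB were Spred3 (0.30), Grb2 (0.43, from -0.30), Braf, Fgfr3, Calm2, Camk2b, Creb1 and Elk4. They were 1 of 13 feedback inhibitors, 3 of 11 ERK cascade genes and 4 of 20 synapse-to-nucleus genes, where 17.3% of all features passed. Map2k1 in cortex turned to 0.45 (adjusted p = 0.0977). Ppp3cb turned to 0.072 in VB, and Grin1 was -0.20 in cortex.

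Markers of stress and of other cells were measured on the same arrays, and their part in the members' values was not tested. The heat shock list, 11 genes tested in VB, had a median of -0.053 there, and Dnaja1, a co-chaperone, had the smallest p (0.41 ± 0.27; n = 4; adjusted p = 0.137), with orientation means of -0.37 and 1.18. In cortex its median was 0.033 over 12 genes, with Hsph1 leading (0.25 ± 0.29; n = 3). Endothelial markers had medians of -0.052 in VB (11 genes, Eng leading at -0.15 ± 0.14; n = 3) and -0.037 in cortex (9 genes, Esam leading at 0.45 ± 0.49; n = 3). Microglial markers had medians of -0.017 (8 genes, P2ry12 at -0.13 ± 0.10; n = 4) and -0.032 (6 genes, C1qa at -0.25 ± 0.26; n = 4). None of these genes passed at an adjusted p under 0.05 by limma as deposited. Under Cy5 over Cy3, Dnaja1 passed in VB with the sign turned, at -0.77, and the endothelial genes Abcb1a (-0.39) and Slco1a4 (0.30) passed there too. Eng turned to 0.10 in VB. Astrocyte markers had medians of -0.024 in VB over 13 genes and -0.24 in cortex over 12, where 10 were negative. Gja1, the astrocyte gap junction protein, was the one listed gene that passed as deposited, at -0.57 ± 0.11 (SD, n = 4; adjusted p = 0.00868) in VB and -0.93 ± 0.30 (n = 4; adjusted p = 0.0174) in cortex. It turned under Cy5 over Cy3 to 0.41 ± 0.22 (adjusted p = 0.00676) in VB and was -0.22 ± 0.17 (adjusted p = 0.422) in cortex, where the astrocyte median was -0.059 with 6 of 12 negative. Thalamus markers had medians of 0.0069 and -0.038 over 10 genes each, with Slc6a4 leading in VB (-0.41 ± 0.12; n = 3; adjusted p = 0.0952) and Rora in cortex, and cortex markers had -0.030 and -0.14 over 9 each, with Slc17a7 leading in VB (0.40 ± 0.33; n = 3; adjusted p = 0.260) and Neurod6 in cortex (0.80 ± 0.76; n = 4; adjusted p = 0.261). Slc6a4 turned under Cy5 over Cy3 to 0.65 (adjusted p = 0.000672) in VB, where Rora, Zic1, Apoe, Fgfr3 and Neurod6 also passed, and Neurod6 turned to -0.087 in cortex. Over all 10 lists, 22 of the 128 genes tested in VB passed under that reading by limma, beside 17.3% of all features. In cortex 0 of 131 passed, beside 1.53% of all features. At an unadjusted p under 0.05 by limma, the same reading gave 51 of the 128 in VB and 23 of the 131 in cortex. The share of all features at that p under this reading is not given here, so no excess can be read from these counts.

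**Figure D5:**
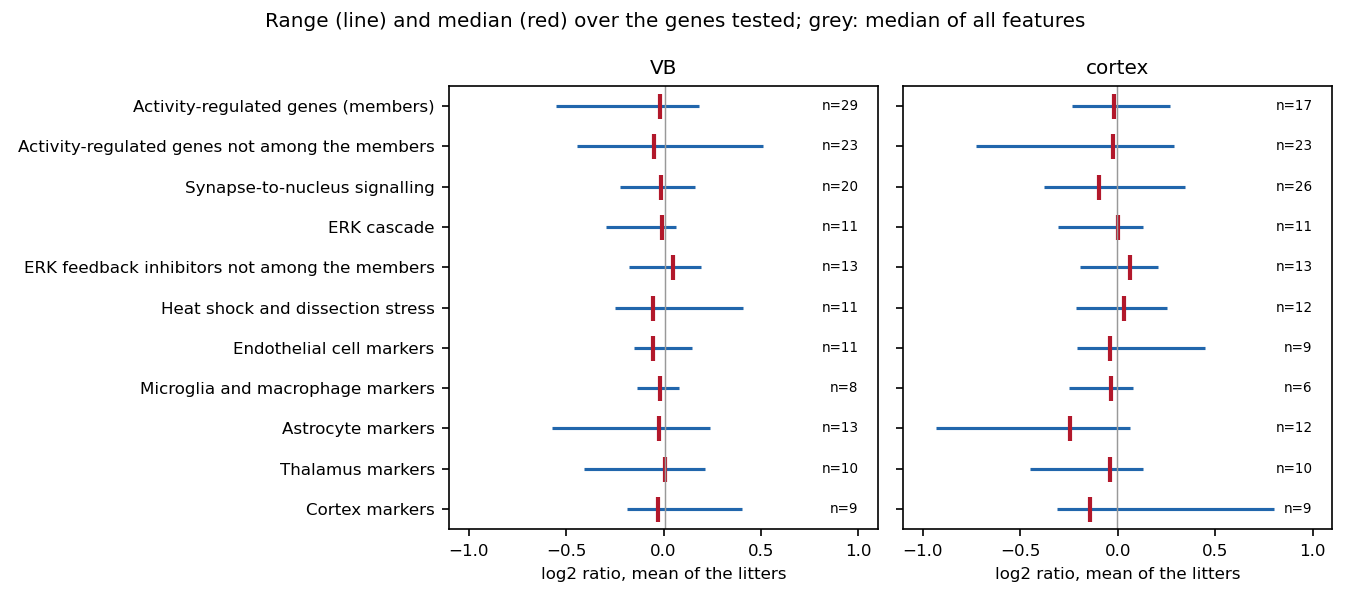
Range (line) and median (red mark) of the mean log2 ratio over the tested genes of each list (x axis), for VB and cortex, with the number tested; the grey line is the median of all features. The members' median lies at -0.017 in VB and -0.018 in cortex, and the astrocyte list in cortex has a median of -0.24, all with the columns as deposited.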

How the data were processed

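RNA of mutant and control mice was compared on 16 two-colour arrays. The deposited values are normalised log ratios, read here as log2, per the labels. The sources used here do not give the base, the numerator, the normalisation, the scanner or the spot filter. Channel intensities were not used, so signal over background and its part in the precision are unknown. Probes were matched to mouse symbols through the platform annotation and RefSeq (15685 by accession, 2963 by symbol, 1694 by synonym, 27 as given, 3738 with none). Of the 36 member probes, 34 matched by accession and 2 by symbol, none with a changed symbol.

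Each litter's swapped pair was averaged, then the probes of a symbol, and features with at least 3 litters were tested with limma 3.58.1 in R 4.3.3 (lmFit, eBayes, two-sided) against a mean of 0, with Benjamini-Hochberg adjustment over all features. The call threshold was 0.05, and intervals are 95%. Intervals, SEs and p-values use limma's moderated variance, which borrows from all features, so they do not follow from the printed SDs of the litters. VB minus cortex was fitted over the 8 litter values. The scripts were tested on simulated data. Values on every array are given for members with an unadjusted p under 0.05 in a comparison and for Fos, Egr1, Arc, Bdnf, Npas4, Nr4a1, Junb and Homer1; of other lists, genes that passed or else the smallest p are named. Egr2, Inhba and Nptx2 were added for their dye orientations after their values were seen. So were the list genes that passed under the Cy5 over Cy3 reading. Litters are numbered alike in the tissues, but the deviations of a litter from its tissue mean correlated at -0.0154 to 0.0291 between VB and cortex, over 4248 features. The members and lists were chosen with earlier results of these data known. Alternatives covered the reading of the columns, scaling, missing values, probes, orientation, pairing, the variance prior and leaving out a litter.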

Additional observations from a re-analysis of the deposited data

Results flagged for a closer look

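In groups with 4 litter values, the gap of the highest or lowest litter to its nearest neighbour was set against the range of the group and compared with Dixon's 95% critical value. Of 22 such groups of member genes, 2 exceeded it, and chance alone gives about 5% of groups. Dusp4 in VB had a log2 ratio of 0.5305 in litter 3, while the other litters lay between -0.012 and 0.058. Klf4 in cortex had 0.353 in litter 3, while the other litters lay between -0.246 and -0.167. The causes were not tested.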

How the results depend on the processing

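Of the members, 0 passed in VB, cortex or VB minus cortex as reported. Read as Cy5 over Cy3, the counts were 8, 1 and 1. With mutant RNA in Cy5 only they were 3 in VB (Gadd45g, Homer1, Klf4) and 1 in cortex (Homer1), and with mutant RNA in Cy3 only they were 2 in VB (Dusp6, Gadd45b) and 1 in VB minus cortex (Dusp6). In these single orientations 1167 and 1678 of all features passed in VB, 95 and 152 in cortex, and 25 and 453 in VB minus cortex. Shares of the features tested are not given for these settings, so the named members cannot be read as an excess. Leaving out 1 litter gave 0 to 1 in VB, the 1 being Dusp6 without litter 4. Every other alternative left all 3 counts at 0. The replicate block, with litter as a block, gave 0 members in VB minus cortex and 16 features in all, against 12 without it. Under Cy5 over Cy3 the means of Dusp6, Gadd45b and Nrn1 in VB turned to 0.57, 0.42 and 0.37. The median of the members in VB moved from -0.017 to 0.025 with mutant RNA in Cy5 only and to -0.057 with unpaired arrays counted, and ranged from -0.017 to 0.021 when 1 litter was left out. In cortex it moved from -0.018 to 0.042 under Cy5 over Cy3 and to 0.049 with mutant RNA in Cy5 only. Over 313 values of named members under an alternative, 268 did not pass and moved by less than the SD of the litters, whether or not the sign held. Of the rest, 33 moved by more without passing, 9 passed with their sign kept and 3 passed with it reversed. Counts over all features moved more: the 50 of VB became 2784 under Cy5 over Cy3, 1167 and 1678 in single orientations, 19 with quantile normalisation or 1 fit of both tissues, 7 with unpaired arrays counted, 0 with arrays kept apart, and 11 to 95 without a litter. The 10 of cortex became 253, 95 and 152, 18 with 2 or more litters, 16 with probes kept apart, 37 in 1 fit, 2 with unpaired arrays, 3 with arrays kept apart and 0 to 98 without a litter, and the 12 of VB minus cortex became 455, 25 and 453, 5 with all 4 litters, 0 with unpaired arrays and 0 to 1 without a litter. The causes were not tested.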
